A study of Mus musculus with 550 samples.

Results

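Polycomb repressive complex 2 (PRC2) was followed through the expression of 9 genes: the catalytic subunits Ezh2 and Ezh1, the core subunits Eed and Suz12, the accessory subunits Jarid2, Mtf2 and Phf19, and the histone-binding subunits Rbbp4 and Rbbp7. The list was set by gene name with no threshold on measured values, and all 9 were found among the 55228 gene names of the count table.

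PRC2 places methyl groups on H3K27, a mark of silenced genes, and in embryonic stem cells it sits mainly at CpG-rich promoters of developmental regulators. Ezh2 or Ezh1 carries the active site, Eed binds the finished mark, and Suz12 holds the core together and docks the accessory subunits. Mtf2 and Phf19, which bind unmethylated CpG-rich DNA, belong to one form of the complex and Jarid2 to another. DNA methylation and PRC2 tend to occupy different CpG-rich regions, and Dnmt3a and Dnmt3b are the enzymes that lay down new DNA methylation.

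The study differentiated the mouse embryonic stem cell line E14 (strain 129/Ola) into embryoid bodies (EBs), aggregates that model early germ layer formation, by withdrawing the self-renewal factor LIF in low-attachment wells. Wild type (WT) cells were set beside cells with both copies of Dnmt3a knocked out (3AKO) or both copies of Dnmt3b knocked out (3BKO), at day 3 and day 9, with all groups given the same medium. Single live cells from pooled EBs were sorted into plates and sequenced with a modified Smart-seq2 protocol, which reads whole transcripts and has no molecular identifiers. The study's methods name 2 independent clones for each knockout, but the labels do not say which cell came from which clone or culture.

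With 3 genotypes and 2 days there were 6 groups, each treated as 1 sample, and no difference below has a replicate check. The labels split every group into library batch 1 and batch 2, which gave 12 libraries, and the plot of log2 ratios shows each of the 9 genes in both batches. Of 550 cells, 486 were kept, with 46 to 61 cells per library in batch 1 and 21 to 29 in batch 2. The filter removed most cells from 3BKO at day 9, where 67 of 93 were kept, against 89 of 91 in WT and 88 of 93 in 3AKO. Summed reads per library ran from 8071118 to 22867811. The median share of mitochondrial reads was 3.58 to 6.31% in the libraries of batch 1 and 9.09 to 13.499% in those of batch 2, and the median number of detected genes was 7015 to 7328 at day 3 and 5591.5 to 6069 at day 9. All 8 epiblast markers on a fixed list had reads in all 6 groups.

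The targeted genes checked the labels. At day 9, Dnmt3a stood at 165.5 counts per 1e+06 reads of the library (CPM) in WT and 25.2 in 3AKO, and Dnmt3b at 166.5 in WT and 16.4 in 3BKO, so both labels went with a low level of their gene. Dnmt3a was also lower in 3BKO, at 63.03 CPM. At day 3, label 3AKO went with 25.8 CPM of Dnmt3a in batch 1 but 334.5 in batch 2, and label 3BKO with 586.7 in batch 1 but 12.8 in batch 2. The batch 2 libraries labelled 3AKO and 3BKO at day 3 thus went against their labels, and the day 3 mutant values below are given per library with no call.

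Positions are given on GRCm38 (GENCODE vM21). Mtf2 (ENSMUSG00000029267.17) spans 108065674 to 108109004 of chromosome 5 on the plus strand, Ezh1 (ENSMUSG00000006920.14) 101191115 to 101226463 of chromosome 11 on the minus strand, and Ezh2 (ENSMUSG00000029687.16) 47530139 to 47595341 of chromosome 6 on the minus strand. Eed (ENSMUSG00000030619.9) spans 89954654 to 89980983 of chromosome 7 and Jarid2 (ENSMUSG00000038518.15) 44729474 to 44921643 of chromosome 13. Whether strand was used in counting is not given in the sources used here, and in 6 of the 9 some exon bases are also exon on the other strand: 18.05% for Rbbp4, 6.93% of Mtf2 (with Tmed5), 6.82% of Eed, 5.98% of Rbbp7, 3.60% of Suz12 and 2.61% of Ezh2. Ezh1, Jarid2 and Phf19 share none.

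Ezh1 and Ezh2 are paralogs, as are Rbbp4 and Rbbp7, so the most alike stretch of each pair is shown at the length of 1 read, 75 bases of coding sequence from GENCODE vM21. Capitals mark the bases at which the partners differ, 10 in the Ezh pair and 8 in the Rbbp pair. Reads as long as these stretches therefore differ between the partners even where their coding sequences are closest. Rbbp7 shares some 75-base stretches with the gene model Gm6382, and its count is less certain for that.
Ezh2: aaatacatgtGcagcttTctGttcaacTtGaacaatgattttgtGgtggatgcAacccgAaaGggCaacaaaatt
Ezh1: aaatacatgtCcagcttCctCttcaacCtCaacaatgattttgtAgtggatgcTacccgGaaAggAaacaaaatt
Rbbp4: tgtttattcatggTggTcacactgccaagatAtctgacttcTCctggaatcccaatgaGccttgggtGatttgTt
Rbbp7: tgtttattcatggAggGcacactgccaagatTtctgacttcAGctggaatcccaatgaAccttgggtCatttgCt

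Levels were first ranked within the complex, per kilobase of exon, since longer genes give more reads. The histone-binding subunit Rbbp7 was highest in all 12 libraries, at a median of 184.7 CPM per kb (112 to 252). Eed had a median of 91.1 (39.4 to 209) and Mtf2 of 49.97 (30.5 to 192), and they held the second and the third place in every library. Rbbp4 followed at 25.05 (20.8 to 29.9).

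The other subunits were lower per kilobase. Jarid2 had a median of 10.04 CPM per kb (7.96 to 20.06), Ezh2 of 9.87 (4.66 to 24.5) and Suz12 of 7.04 (4.77 to 17.9), with ranges that overlapped. Ezh1 had 2.88 (1.39 to 6.65), and Phf19 was lowest in all 12 libraries at 1.10 (0 to 3.31). Neither Eed and Mtf2 nor Jarid2, Ezh2 and Suz12 can be set in a firm order. With the length of the longest coding transcript in place of all exon bases, Eed took the first or second place in each library and Rbbp7 likewise, while Phf19 stayed last.

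**Figure D1:**
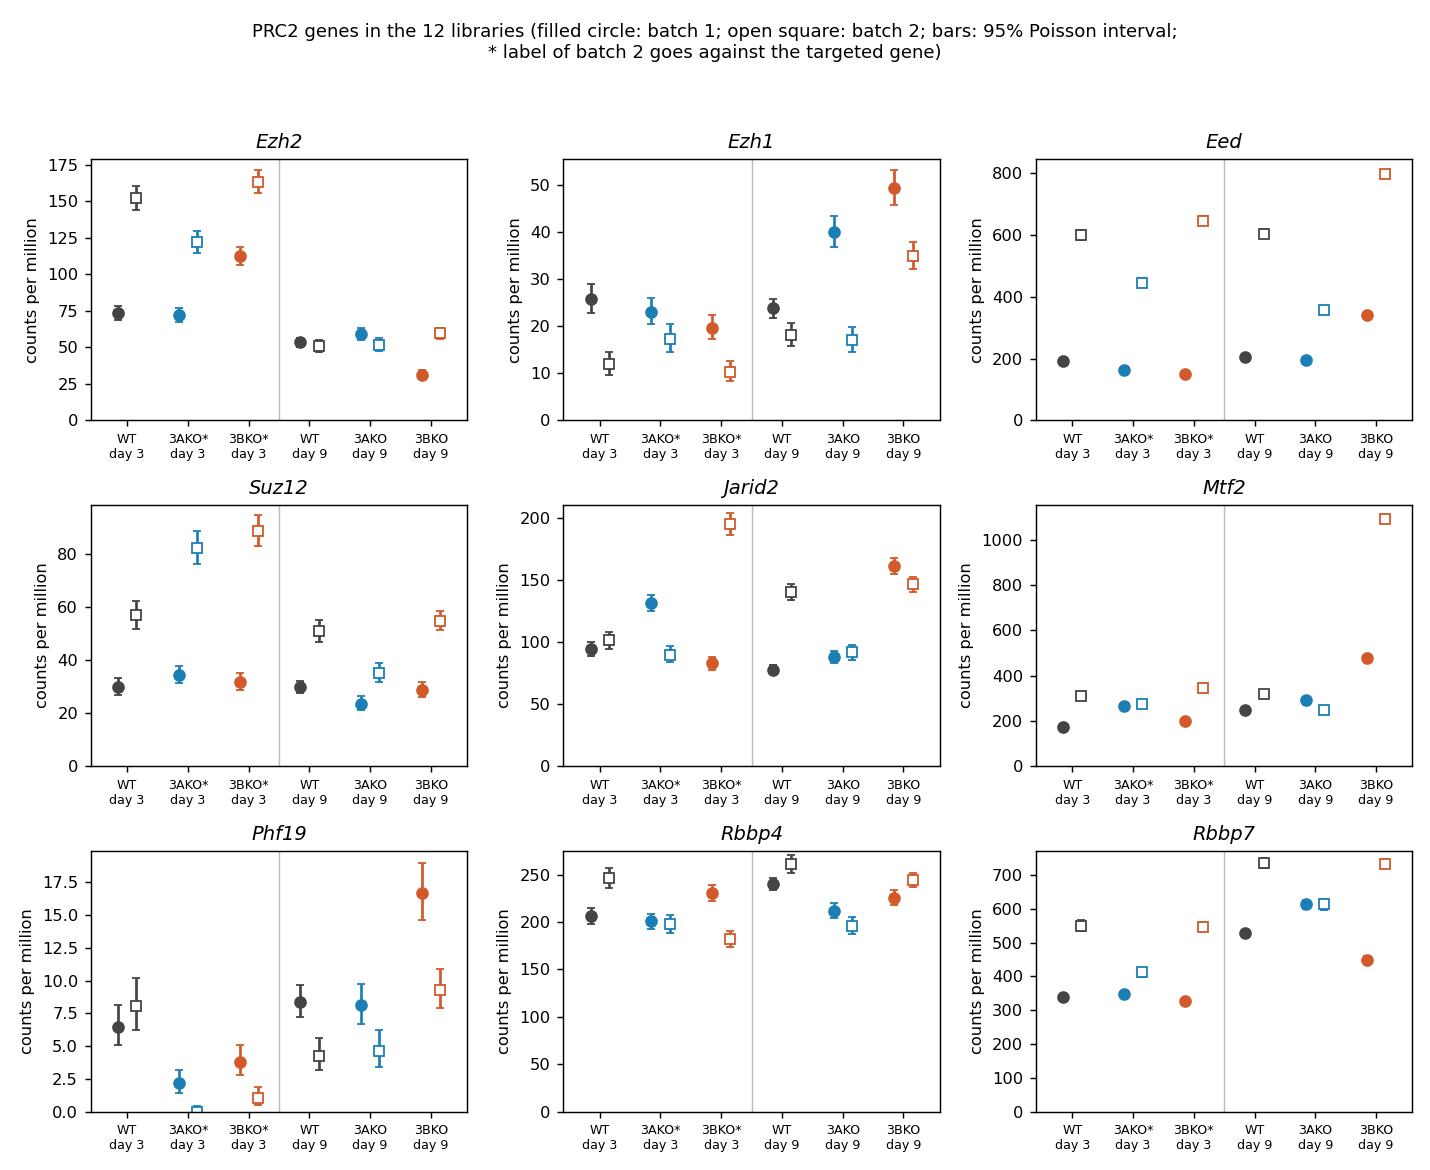
CPM (vertical axes, from 0) of the 9 PRC2 genes in the 12 libraries, by genotype label and day, with batch 1 as filled circles, batch 2 as open squares and 95% Poisson intervals. Mtf2 stands at 478 and 1091 CPM in 3BKO at day 9 against 174 to 345 in the other 10 libraries, and Eed and Suz12 are higher in batch 2 than in batch 1 of all 6 groups.

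Some members differed between the library batches of the same group. Eed was higher in batch 2 in all 6 groups, by 0.87 to 2.09 on the log2 scale, and Suz12 in all 6 by 0.56 to 1.46. Ezh1 was lower in batch 2 in all 6 groups, with log2 ratios of -1.18 to -0.38. Rbbp4 moved least, with log2 ratios of -0.34 to 0.26. The mitochondrial share of the libraries moved with the batch (above), and its part in these differences was not tested.

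Genotype and day were then compared with a rule applied alike to every gene: a gene was called higher or lower if a minimum of 20% of cells in one or other group had reads of it, batch by batch, and if CPM + 1 differed at least 1.5-fold the same way in both batches. Ratios are on the log2(CPM + 1) scale, which understates the change of scarce genes. Those over both batches come from summed reads, so each batch counts by its depth. At day 9, batch 2 gave 16249575 of 30287278 reads in 3BKO, 9903925 of 23858355 in 3AKO and 11953550 of 34821361 in WT. A ratio over both batches can therefore lie outside the single-batch ratios, as for Ezh1 and Eed in 3BKO against WT (below). Phf19 was seen in too few cells to pass, so 8 of the 9 members could be called. In 3BKO against WT at day 9, Mtf2 and Ezh1 were called higher and no member lower, where 7.51% of 9235 tested genes were called higher and 12.5% lower. In 3AKO against WT at day 9, 0 members were called, where 3.65% of 9201 tested genes were called higher and 5.96% lower. In 3BKO against 3AKO at day 9, Mtf2, Eed and Jarid2 were called higher and no member lower, beside 11.2% of 9152 genes higher and 11.5% lower. In WT between day 3 and day 9, 0 members were called, where 15.2% of 10162 genes were called higher at day 9 and 6.80% lower. The comparisons with WT at day 9 share their WT cells, and those with 3AKO and 3BKO share theirs, so they are not independent.

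The members called higher in 3BKO, 2 of 8 against WT and 3 of 8 against 3AKO, made up a larger share than the 7.51 and 11.2% of all tested genes, but a list of 8 is short and was not tested as a list. Over both batches, the median log2 ratio of the 8 members was 0.42 in 3BKO against WT and 0.51 in 3BKO against 3AKO, beside medians over all tested genes of -0.08 and -0.00. It was -0.07 in 3AKO against WT and 0.08 in WT at day 9 against day 3, beside -0.10 and 0.19. The groups differed in the share of their reads from batch 2 (above), and its part in these medians was not tested. In 3BKO against WT, the ratios over both batches of Eed, Suz12, Rbbp4 and Rbbp7 lay above both of their batch ratios. They were 0.77 (0.72 and 0.40), 0.21 (-0.04 and 0.11), -0.07 (-0.09 and -0.10) and 0.01 (-0.23 and -0.00). Ezh1 lay below both of its batch ratios, and Ezh2, Jarid2 and Mtf2 lay between theirs. The median of 0.42 therefore does not describe a single batch. The WT comparison depended on scaling: with TMM factors the shares of genes called higher and lower became 9.23 and 11%, with median-ratio factors 9.75 and 10.4%, and without mitochondrial genes and Gm42418 in the total 11.8 and 9.03%. The median over all tested genes, 0.19, was 0.03 with TMM factors and -0.00 with median-ratio factors.

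**Figure D2:**
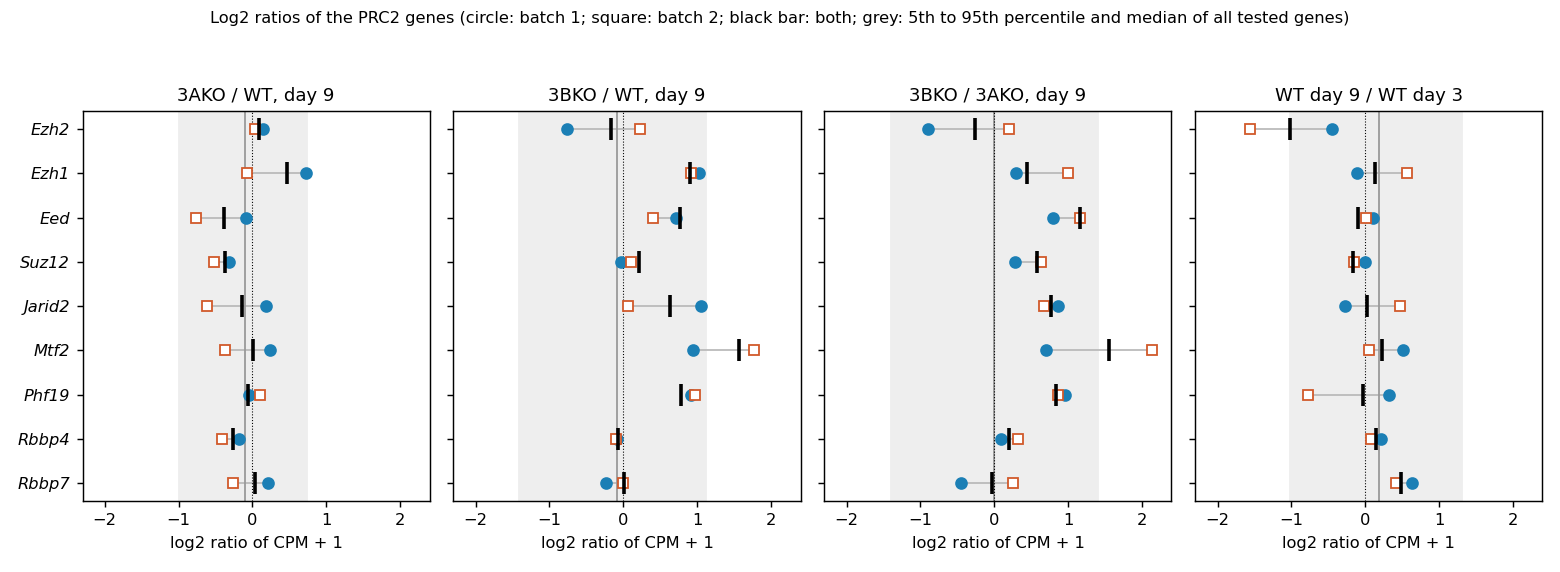
Log2 ratios of CPM + 1 (horizontal axes) of the 9 genes in the 4 comparisons, with batch 1 as circles, batch 2 as squares, both batches as black bars, and the 5th to 95th percentile and median of all tested genes in grey. Mtf2 lies to the right of the grey band in 3BKO against WT (1.56) and in 3BKO against 3AKO (1.55), and Ezh2 sits at its left edge in WT at day 9 against day 3 (-1.02). Without the cell with most Mtf2 reads in each library, the Mtf2 ratio against 3AKO was 1.29, inside the band, which ends at 1.40.

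Of the catalytic subunits, Ezh2, the main H3K27 methyltransferase of dividing cells, was lower at day 9 than at day 3. The WT libraries of day 3 stood at 73.4 CPM (batch 1) and 152.04 (batch 2), and those of day 9 at 53.3 and 50.8. Label 3AKO went with 72.2 and 121.9 at day 3 and with 58.98 and 51.9 at day 9. Label 3BKO went with 112.3 and 163.4 at day 3 and with 31.1 and 59.6 at day 9. All 6 libraries of day 3 therefore lay above all 6 of day 9, whichever label the mutants of day 3 carried.

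The log2 ratio of Ezh2 between WT at day 9 and day 3 was -1.02 over both batches (52.4 CPM, interval 50.1 to 54.9, against 107.2, 102.7 to 111.9). It was -0.45 in batch 1 and -1.56 in batch 2, so that batch 1 fell short of 1.5-fold and the gene was not called. It was called lower with TMM factors, with median-ratio factors and at a lower fold limit. At day 9, Ezh2 had log2 ratios of 0.14 and 0.03 in 3AKO against WT and of -0.76 and 0.23 in 3BKO against WT, for batch 1 and batch 2. The sign in 3BKO thus differed between the batches, and 1 cell held 26.8% of the Ezh2 reads of the 3BKO library of batch 1.

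Ezh1, the paralog that prevails in resting cells, stood at 23.8 (batch 1) and 18.1 (batch 2) CPM in the WT libraries of day 9, at 40.1 and 17.1 in those of 3AKO and at 49.5 and 35.02 in those of 3BKO. At day 3 the 6 libraries had between 10.3 and 25.8 CPM. The lower of the 3BKO libraries of day 9 lay above both WT libraries and above all of day 3. The log2 ratio of 3BKO to WT was 0.90 over both batches (41.7 CPM, 39.5 to 44.1, against 21.9, 20.3 to 23.5), with 1.02 in batch 1 and 0.92 in batch 2, a 1.87-fold difference. Without the cell that held most Ezh1 reads in each library it was 1.01. In 3AKO against WT the ratio was 0.73 in batch 1 and -0.08 in batch 2.

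Per kilobase, the ratio of Ezh1 to Ezh2 was 0.315 and 0.0704 in WT at day 3 and 0.401 and 0.319 at day 9, for batch 1 and batch 2. It was 0.610 and 0.295 in 3AKO at day 9. It reached 1.43 and 0.527 in 3BKO at day 9, the highest of each batch, and the 3BKO library of batch 1 was the only one of 12 with more Ezh1 than Ezh2 per kilobase. With the length of the longest coding transcript that ratio was 1.05. The sum of both genes was 13.9 to 25.9 CPM per kb in the libraries of day 3 and 10.03 to 14.2 in those of day 9.

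**Figure D3:**
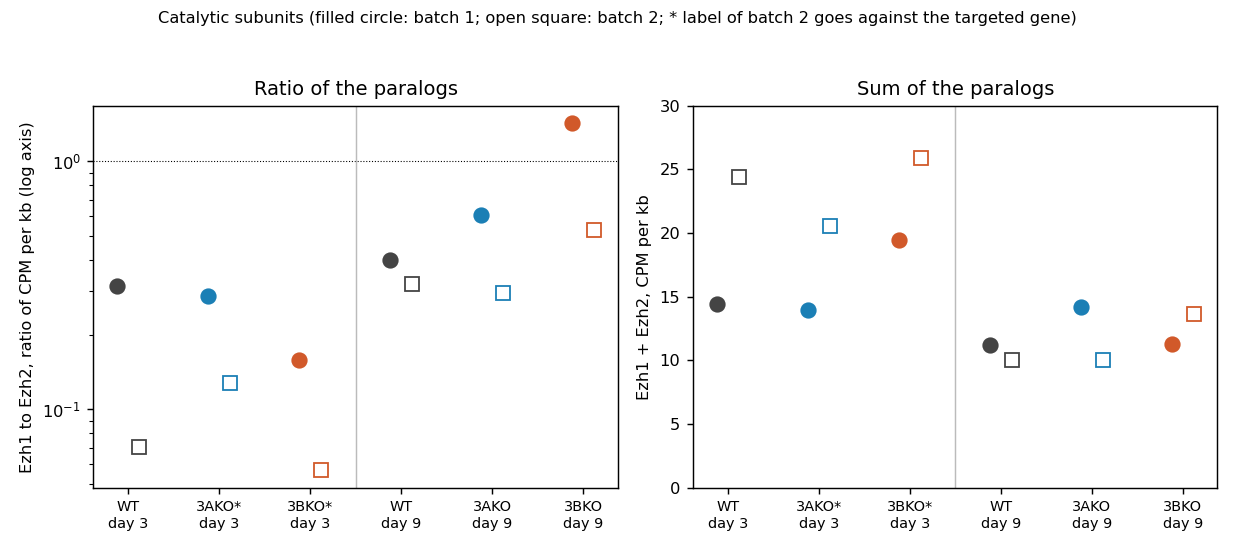
Ratio of Ezh1 to Ezh2 in CPM per kb (left, log axis) and their sum in CPM per kb (right, from 0) in the 12 libraries, batch 1 as filled circles and batch 2 as open squares. The ratio ran from 0.0568 in the batch 2 library labelled 3BKO at day 3 to 1.43 in batch 1 of 3BKO at day 9, and the sums of day 9 lay at 10.03 to 14.2.

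Ezh2 reads were also found in fewer cells at day 9. After every cell was thinned to 50000 reads, 91.1% of WT cells had an Ezh2 read at day 3 (82.6 to 96.4%) and 53.9% at day 9 (43.04 to 64.6%), a difference of -37.2 percentage points (-49.3 to -23.6). In 3BKO at day 9 the share was 37.3% (25.8 to 49.99%) and in 3AKO 60.2% (49.2 to 70.5%), and the difference of 3BKO from 3AKO was -22.9 points (-38.4 to -6.13). The difference of 3BKO from WT was -16.6 points (-32.3 to 0.10), whose interval reached 0. Its sign differed between the batches. The share was 30.4% in 3BKO and 58.3% in WT in batch 1, and 52.4% in 3BKO and 44.8% in WT in batch 2. The intervals of this paragraph cover counting error only and treat cells as independent. The share of WT cells with a read was also lower at day 9 for Suz12 (below), for Jarid2 by -18.0 points (-29.9 to -5.33) and for Eed by -9.83 points (-18.8 to -1.10), while for Ezh1 the interval of the difference reached 0 (-14.9 points, -29.7 to 0.35). The number of detected genes per cell was lower at day 9 as well (above), and its part in the lower Ezh2 share was not tested.

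Many thinned cells had reads of Ezh2 or Ezh1 but not of the other. In such sparse counts a gene can be missed in a cell that expresses it, so these shares do not show separate use of the enzymes. From cell to cell, the Spearman rho of Ezh2 with Ezh1 lay between -0.15 (3AKO at day 9) and 0.13 (3BKO at day 9) in the 6 groups. Whether reads of both genes met less often than by chance was not tested. Of the WT cells of day 3, 37.97% had reads of both and 53.2% of Ezh2 alone, and of the WT cells of day 9, 17.98% had both, 35.96% Ezh2 alone, 10.1% Ezh1 alone and 35.96% neither. In 3BKO at day 9, 20.9% had both, 16.4% Ezh2 alone, 20.9% Ezh1 alone and 41.8% neither. Cells with Ezh1 alone were 14 of 67 in 3BKO (11.9 to 32.6%) and 9 of 89 in WT (4.73 to 18.3%), intervals that overlapped.

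Across the 12 libraries the levels of Ezh1 and Ezh2 ran in opposite directions, with a Pearson r of -0.78 and a Spearman rho of -0.56 on log2(CPM + 1). The r was -0.68 over the 8 libraries without the day 3 mutant labels and -0.57 without the 2 libraries farthest from the median of Ezh2, with rho of -0.29 and -0.24. The libraries share plates, batches and days, so the value is a description. The genes nearest to Ezh2 in pattern, out of 6634 genes with reads in no fewer than 20% of cells in every library, were Hnrnpa2b1 (r = 0.945), mt-Rnr1 (0.927), Atp5g3 (0.924), Fxr1 (0.921) and Srbd1 (0.916). Of these, mt-Rnr1 is a mitochondrial transcript, and the mitochondrial share of reads was higher in batch 2 (above).

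Eed, the subunit that binds H3K27 methylation and stimulates the enzyme, stood at 206 (batch 1) and 604.5 (batch 2) CPM in the WT libraries of day 9, at 195 and 357 in those of 3AKO and at 340.3 and 798 in those of 3BKO. Within each batch the order was 3BKO, WT, 3AKO. The log2 ratio of 3BKO to 3AKO was 1.16 (0.80 in batch 1 and 1.16 in batch 2), a 2.23-fold difference and a call. Against WT, 3BKO had 0.77 (0.72 and 0.40) and 3AKO -0.39 (-0.08 and -0.76), neither of which was called. The 0.77 lay above both of its batch ratios, as 3BKO drew a larger share of its reads from batch 2, where Eed was higher. Cells that exceeded the median WT cell of the same batch were 52 of 67 in 3BKO, or 77.6% (65.8 to 86.9%), and 44 of 88 in 3AKO. At day 3 the WT libraries had 192 and 599.8 CPM, a wider gap between batches of one group than the 2.23-fold between knockouts.

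Suz12, the scaffold of the complex, stood at 29.65 and 50.9 CPM in the WT libraries of day 9, at 23.6 and 35.1 in those of 3AKO and at 28.9 and 54.9 in those of 3BKO. Its ratios of 3BKO to WT were -0.04 and 0.11, and no comparison called it. It was seen in 69.6% of thinned WT cells at day 3 (58.2 to 79.5%) and in 44.9% at day 9 (34.4 to 55.9%), a difference of -24.7 points (-39.1 to -8.91), while its summed level moved by -0.16 on the log2 scale. The number of detected genes per cell was also lower at day 9 (above), and its part in the lower share was not tested.

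Among the accessory subunits Mtf2, a Polycomb-like protein that brings PRC2 to CpG-rich DNA, showed the largest log2 ratio of the 9 in 3BKO against WT and against 3AKO. At day 9 WT stood at 248 CPM (batch 1) and 319 (batch 2), 3AKO at 294 and 248, and 3BKO at 478 and 1091. At day 3 WT stood at 174 and 308, label 3AKO at 266 and 276, and label 3BKO at 197 and 345. Both 3BKO libraries of day 9 lay above the other 10.

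The log2 ratio of 3BKO to WT was 1.56 (807 CPM, 797 to 817, against 272, 267 to 278), a 2.95-fold difference, with 0.94 in batch 1 and 1.77 in batch 2. A share of 97.9% of the 9235 tested genes had a lower ratio. One cell of the 3BKO library of batch 2 reached 6768 CPM and held 36.03% of its Mtf2 reads, and that library was also the most deeply sequenced, at a median of 692321 reads per cell. Without the cell with most Mtf2 reads in each library, the ratio was 1.26, with 0.95 in batch 1 and 1.38 in batch 2. Against 3AKO, the ratio with all cells was 1.55, with 0.70 in batch 1 and 2.13 in batch 2. Without the cell with most Mtf2 reads in each library it was 1.29, with 0.75 and 1.82.

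The difference was spread over the cells. The median 3BKO cell had 415 CPM in batch 1 and 738 in batch 2, where the median WT cell had 243 and 266 and the median 3AKO cell 225 and 190. Of the 67 3BKO cells, 55 exceeded the median WT cell of the same batch, which was 82.1% (70.8 to 90.4%), against 38 of the 88 3AKO cells, 43.2% (32.7 to 54.2%). Nearly every cell had a read of the gene in any group: 92.1% in WT, 89.8% in 3AKO and 98.5% in 3BKO after thinning.

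**Figure D4:**
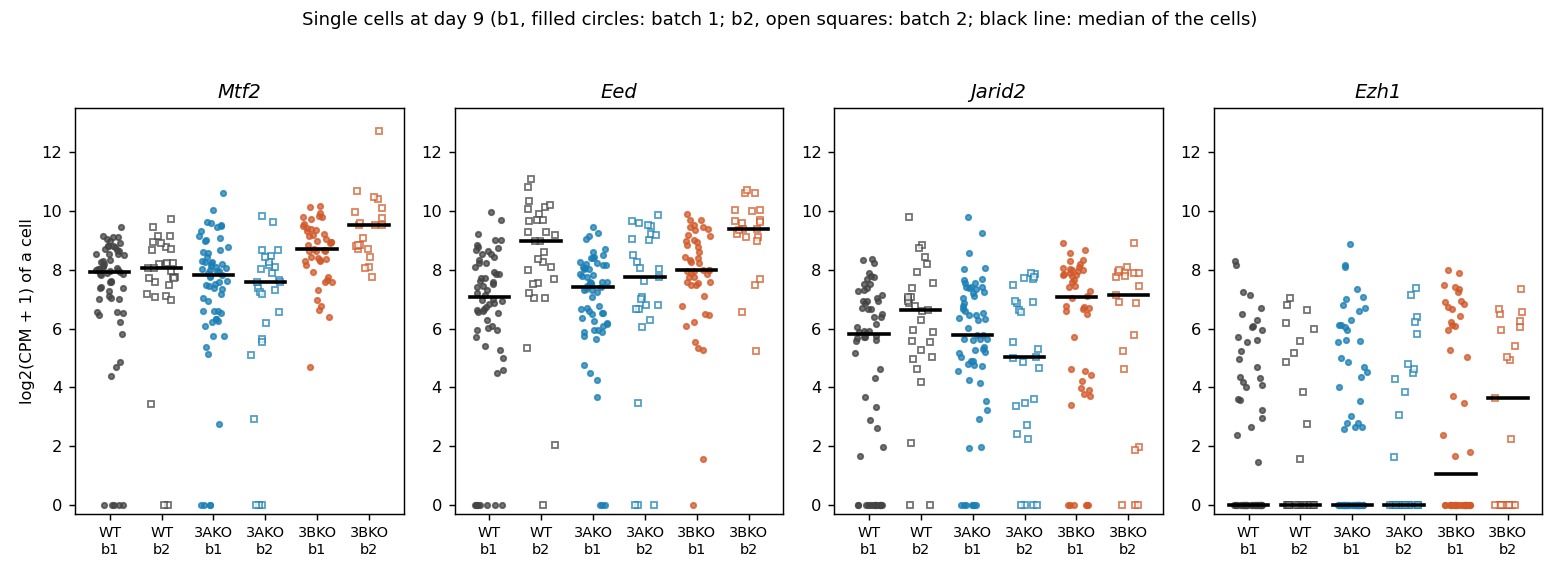
Single cells of day 9 by genotype and batch (b1, filled circles; b2, open squares) on a log2(CPM + 1) axis for Mtf2, Eed, Jarid2 and Ezh1, with the median as a black line. The 3BKO medians of Mtf2 (415 and 738 CPM) stand above those of WT (243 and 266), while for Ezh1 the medians of WT and 3AKO are 0 in both batches and those of 3BKO are 1.08 and 11.6 CPM.

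Since Mtf2 and Ezh1 were called higher together in the Dnmt3b knockout, their promoters are shown beside that of Ezh2, which was not, with every CG pair, the site of DNA methylation, in capitals. Each is the 250 bases before the transcription start in RefSeq (GRCm38.p6), where the median of 32851 such windows held 6 CG pairs, counted alike on both strands. Mtf2 (chr5:108065424-108065673, plus strand) held 23 and Ezh1 (chr11:101226464-101226713, minus strand) 14. Ezh2 (chr6:47595031-47595280, minus strand) held 23. Fewer pairs were found in 86.7% of all windows for a count of 23 and in 70.6% for 14, and the 9 members had 12 to 37 CG pairs at their first listed start. RefSeq lists a second, downstream start for Mtf2, whose window held 2. No methylation was measured in these cells.
Mtf2: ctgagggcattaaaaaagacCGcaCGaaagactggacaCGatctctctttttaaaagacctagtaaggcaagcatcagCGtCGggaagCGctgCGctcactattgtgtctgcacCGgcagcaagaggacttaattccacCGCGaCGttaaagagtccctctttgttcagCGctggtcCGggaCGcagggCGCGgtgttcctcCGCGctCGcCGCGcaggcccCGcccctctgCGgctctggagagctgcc
Ezh1: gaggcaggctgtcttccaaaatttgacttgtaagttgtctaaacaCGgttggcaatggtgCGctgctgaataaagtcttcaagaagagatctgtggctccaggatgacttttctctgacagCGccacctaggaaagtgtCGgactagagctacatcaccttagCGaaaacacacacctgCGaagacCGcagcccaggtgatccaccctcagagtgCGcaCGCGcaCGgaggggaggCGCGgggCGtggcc
Ezh2: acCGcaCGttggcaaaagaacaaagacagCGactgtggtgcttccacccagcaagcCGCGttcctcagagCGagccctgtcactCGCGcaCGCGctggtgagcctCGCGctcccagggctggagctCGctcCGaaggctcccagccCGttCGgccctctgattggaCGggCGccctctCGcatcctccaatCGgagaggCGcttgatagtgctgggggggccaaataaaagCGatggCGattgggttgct

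Jarid2, which docks on Suz12 and helps PRC2 onto its targets, stood at 77.4 (batch 1) and 140.1 (batch 2) CPM in the WT libraries of day 9, at 87.9 and 91.5 in those of 3AKO and at 161 and 146 in those of 3BKO. Both 3BKO libraries lay above the others of day 9, by little in batch 2. The log2 ratio to 3AKO was 0.77 (0.87 and 0.67), a 1.71-fold difference and a call, which was lost with the mean of single-cell CPM. Of all tested genes, 83.4% had a lower ratio to 3AKO. Against WT, Jarid2 had a log2 ratio of 0.63, with 1.05 in batch 1 and 0.06 in batch 2, and was not called. At day 3 label 3BKO went with 82.6 and 194.8 CPM, the widest gap between batches for this gene.

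Phf19, the other Polycomb-like member, was scarce. At day 9 WT stood at 8.40 and 4.27 CPM, 3AKO at 8.10 and 4.64, and 3BKO at 16.7 and 9.29, and it was seen in 9.0% of the thinned WT cells, 6.8% of 3AKO and 10.4% of 3BKO. The ratios of 3BKO to WT were 0.91 and 0.97, but 1 cell held 64.96% of the Phf19 reads in batch 1 and 49.01% in batch 2 of 3BKO, and 94.1% in batch 2 of WT. At day 3 WT stood at 6.49 and 8.03 CPM, label 3AKO at 2.18 and 0, and label 3BKO at 3.82 and 1.01. The 0 reads in batch 2 of label 3AKO allow up to 0.372 CPM (3 counts).

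The histone-binding subunits varied least. Rbbp4, which PRC2 shares with the NuRD, Sin3 and CAF-1 complexes, stayed between 182 and 261 CPM in the 12 libraries, a 1.43-fold range, and its 4 ratios lay between -0.27 and 0.20. Rbbp7 had 338 and 549 CPM in WT at day 3 and 527 and 734 at day 9, with a log2 ratio of 0.48 (0.64 in batch 1 and 0.42 in batch 2). Batch 2 missed 1.5-fold, and the gene was called higher with the stricter cell filter, the mean of single-cell CPM, thinned cells or a lower fold limit. At day 9 the log2 ratios of 3AKO against WT were opposite in sign, 0.22 (batch 1) and -0.26 (batch 2), and those of 3BKO were -0.23 and -0.00. Per kilobase Rbbp7 exceeded Rbbp4 in every library, by 4.25 to 9.38-fold.

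**Figure D5:**
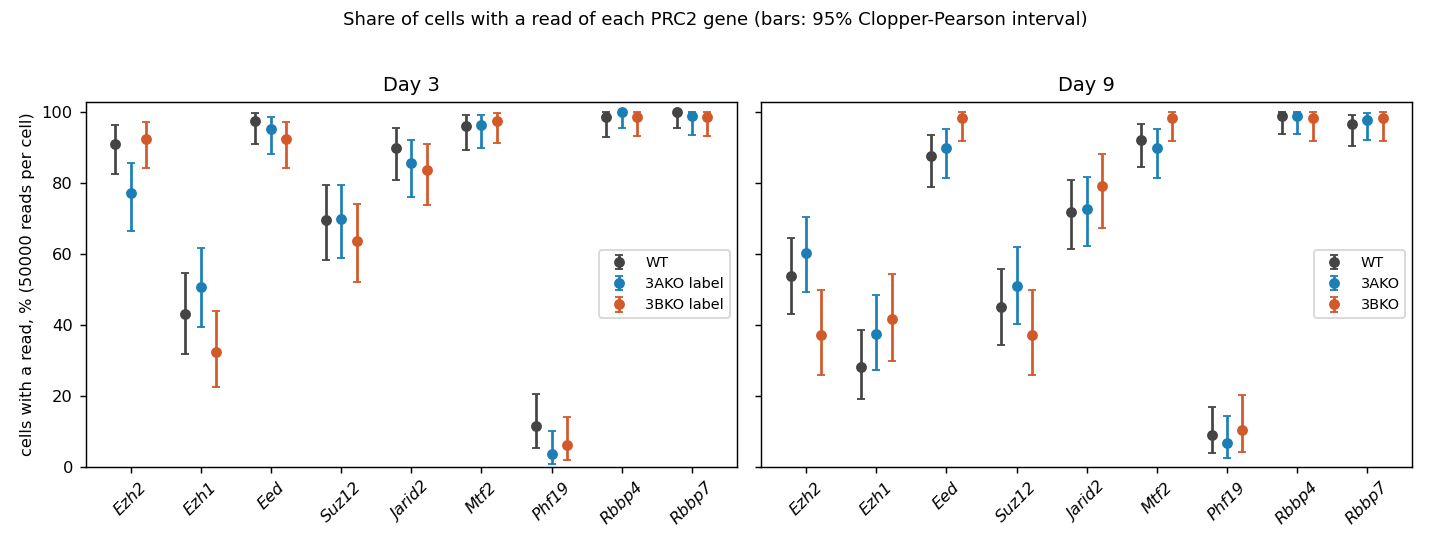
Share of cells with at least 1 read of each gene (vertical axis, percent, every cell thinned to 50000 reads) by genotype label at day 3 (left) and day 9 (right), with 95% Clopper-Pearson intervals. Ezh2 stands at 77.1 to 92.5% at day 3 and 37.3 to 60.2% at day 9, while Rbbp4 and Rbbp7 are at 96.6% or more throughout and Phf19 is at 3.6 to 11.4%.

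At day 3, where the mutant labels of batch 2 are in doubt, values can also be read by plate. On plate 210 the batch 1 cells carried label 3BKO and the batch 2 cells label 3AKO, on plate 211 it was the other way round, and plate 209 was WT. Dnmt3a had 587 and 335 CPM on plate 210, 25.8 and 12.8 on plate 211 and 455 and 267 on plate 209, for batch 1 and batch 2. Dnmt3b had 167 and 85.1, 261 and 185, and 600 and 523 in the same order. A low Dnmt3a level thus went with plate 211 rather than with the label. Ezh2 had 112 and 122 CPM on plate 210, 72.2 and 163 on plate 211 and 73.4 and 152 on plate 209, for batch 1 and batch 2. Mtf2 had 197 and 276 CPM on plate 210, 266 and 345 on plate 211 and 174 and 308 on plate 209. No library of day 3 reached the Mtf2 level of either 3BKO library of day 9, on any plate.

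By label, the 3BKO libraries of day 9 were set against those of day 3 side by side, without a call. Since the batch 2 mutant labels of day 3 are in doubt, the batch 2 ratios under both mutant labels may compare different genotypes. Mtf2 had log2 ratios of 1.27 in batch 1 and 1.66 in batch 2, Ezh1 of 1.28 and 1.67, and Ezh2 of -1.82 and -1.44. Under label 3AKO the same genes had 0.14 and -0.15, 0.77 and -0.02, and -0.29 and -1.22. In WT they had 0.51 and 0.05, -0.11 and 0.56, and -0.45 and -1.56.

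Relations between members from cell to cell were weak in these sparse counts. Over the 36 pairs of members, the median Spearman rho of thinned counts lay between -0.01 and 0.07 in the 6 groups, with 67 to 89 cells each, and single pairs between -0.37 and 0.36, the highest being Suz12 with Jarid2 in WT at day 9. In sparse counts such values do not show whether members vary together. Ezh2 had a rho of 0.07 to 0.35 with the summed reads of 18 proliferation genes, positive in all 6 groups. Rbbp4 had a higher rho with them than Ezh2 in WT at day 3 (0.34 against 0.17) and in 3AKO at day 9 (0.30 against 0.24). The same held under label 3BKO at day 3 (0.20 against 0.07), while Ezh2 had the higher rho in the other groups.

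The rest of the Polycomb system was counted with the same rule, by which every gene named as called had the same sign in both batches. Of the 4 other PRC2 subunits in the table, 3 passed detection. Aebp2, the partner of Jarid2 in the second form of the complex, was called higher in 3BKO against 3AKO, with a log2 ratio of 2.23 (76.6 against 15.6 CPM, with 1.57 in batch 1 and 2.37 in batch 2), and higher in WT at day 9 than at day 3, at 1.10 (1.04 and 1.18). Against WT it had 1.44 in 3BKO (0.44 in batch 1 and 1.96 in batch 2) and -0.79 in 3AKO (-1.13 and -0.41), and was not called. Epop and Lcor were not called in any comparison, and Phf1 did not pass detection. Over both batches Epop stood at 18.9 CPM in WT of day 9, 26.2 in 3AKO and 34.7 in 3BKO, against 74.3 in WT of day 3. Its log2 ratio of WT at day 9 to day 3 was -2.63 in batch 1 and -0.30 in batch 2. Against WT at day 9, Epop had 1.13 and -1.11 in 3AKO and 1.38 and 0.14 in 3BKO.

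Of the 2 enzymes that remove H3K27 methylation, Kdm6a was called higher in 3BKO against 3AKO, at 2.56 (58.1 against 9.05 CPM, with 0.80 in batch 1 and 3.07 in batch 2), and Kdm6b was not called in any of the 4 comparisons. Against WT, Kdm6a had 1.45 in 3BKO (0.23 in batch 1 and 1.36 in batch 2) and -1.11 in 3AKO (-0.57 and -1.71), neither called. The 1.45 lay above both of its batch ratios, since batches of unequal depth were summed.

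PRC1, the second Polycomb complex, which ubiquitylates H2A and reads the PRC2 mark, was tested with 15 of 21 genes in the comparisons with WT. In 3BKO against WT, 1 was called higher and 2 lower: Phc3 at 0.51 (0.66 in batch 1 and 0.94 in batch 2), Pcgf1 at -1.24 and Bcor at -1.64, the latter a pair that acts in a PRC1 form with Kdm2b. In 3AKO against WT, Pcgf3 was called higher at 1.12, and Pcgf1 (-1.31) and Rybp (-0.84) lower. In WT between days, 3 of 16 were called higher at day 9 and 4 lower, with Pcgf2 at 1.54, Bcor at 1.13, Cbx6 at -1.84 and Kdm2b at -1.16. In 3BKO against 3AKO, 1 of 14 was called, Rybp at 2.37 (12.2 against 1.55 CPM). Of all tested genes, 7.51% were called higher and 12.5% lower in 3BKO against WT, and 3.65 and 5.96% in 3AKO against WT. The shares were 15.2 and 6.80% in WT between days, and 11.2 and 11.5% in 3BKO against 3AKO. The median of the tested PRC1 genes was -0.30 in 3BKO against WT and -0.12 in 3AKO, beside -0.08 and -0.10 over all tested genes.

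Partners of Rbbp4 and Rbbp7 outside PRC2 were 12, all tested. In 3BKO against WT, Sin3a was called higher (0.64) and Mta1 (-1.40) and Chaf1b (-1.34) lower. In 3AKO against WT, Gatad2b was called lower (-1.43), and the other 11 were not called. In 3BKO against 3AKO, 3 were called higher and 2 lower, with Gatad2b at 1.28, Sin3a at 0.78, Chaf1b at -1.23 and Mta1 at -0.87 named by size, and in WT at day 9 against day 3 Mta1 (0.96) was called higher and Chaf1a (-1.13) lower. Over all tested genes, the shares called higher and lower were 7.51 and 12.5% in 3BKO against WT and 3.65 and 5.96% in 3AKO against WT. They were 11.2 and 11.5% in 3BKO against 3AKO, and 15.2 and 6.80% in WT between days. The median over the 12 was 0.13 in 3BKO against WT and -0.15 in 3AKO, beside -0.08 and -0.10 over all tested genes.

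Of 23 developmental genes that PRC2 binds in embryonic stem cells, few were expressed. Pax6 alone reached 20% of the cells in any group, and 9 to 14 of the 23 had no read in a group. At most 1 of the 23 passed detection in a comparison, and none was called.

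Of the 18 proliferation genes, all tested, Bub1 was called lower in 3BKO against WT (-0.38), Mcm2 higher in 3BKO against 3AKO (1.16) and Ccne1 lower in WT at day 9 than at day 3 (-1.04), and none was called in 3AKO against WT. The call of Bub1 rests on its batch ratios, -0.59 in batch 1 and -0.74 in batch 2. The medians of the proliferation genes in the 4 comparisons lay between -0.23 and -0.07. The shares of all tested genes called in these comparisons are those given with the PRC1 genes (above).

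Cell type markers differed between the groups of day 9. The 8 epiblast markers summed to 3793 and 2594 CPM in WT, 3314 and 2843 in 3AKO, and 6024 and 4124 in 3BKO, for batch 1 and batch 2. Of the epiblast markers, Zfp42 (1.24), Sox2 (0.92) and Nanog (0.84) were called higher in 3BKO against WT and Fgf5 (-4.32) lower, and in 3AKO against WT Zfp42 (-1.06) was called lower. In 3BKO against 3AKO, Zfp42 (2.30), Sox2 (1.34) and Nanog (1.20) were called higher. In WT at day 9 against day 3, Nanog (1.37) and Zfp42 (0.89) were called higher and Pou5f1 (-1.70) and Sox2 (-0.68) lower. The 8 meso-endoderm markers summed to 56.4 and 48.9 in WT, 50.7 and 110.8 in 3AKO and 17.1 and 44.5 in 3BKO, where T, Mixl1 and Foxa2 had no read (Mixl1 had none in WT either, and Kdr none in 3AKO). The 7 ectoderm markers summed to 348 and 233 in WT, 305 and 282 in 3AKO and 479 and 336 in 3BKO, in which Sox1, Nes and Fabp7 had no read. Otx2 gave 231 of the 402 CPM of both 3BKO batches and was called higher against WT (0.79) and against 3AKO (0.94), Sox11 was called lower in both (-2.04 and -1.99), and the median over the 7 genes was -1.81 against WT. The 18 proliferation genes summed to 6015 and 6261 in WT, 5576 and 5827 in 3AKO, and 6066 and 5261 in 3BKO. Trophoblast markers (5) summed to at most 23.8 CPM and fibroblast markers (4) to at most 29.3 in any library, and of these Krt8 alone was called, lower in WT at day 9 than at day 3 (-0.91). The part of the epiblast and meso-endoderm markers in the levels of Mtf2, Eed and Ezh1 was not tested.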

How the data were processed

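Single cells from WT, 3AKO and 3BKO EBs at day 3 and day 9 were analysed from 1 table of whole-number read counts per gene name and cell, as deposited. Per the study's methods and the submitters' processing notes, the authors trimmed single-end reads of 75 bases with Trim Galore 0.5.0, checked them with FastQC 0.11.2, aligned them to GRCm38 with STAR 2.7.1a and counted exon reads per gene name with featureCounts 1.6.1, leaving out multi-mapped reads. The reads carry no molecular identifiers, so intervals and the limit of 3 counts cover counting error only. A further 26 columns of the table, empty wells and small pools among them, were not used.

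Cells were kept with at least 50000 reads, at least 2000 genes and at most 50% mitochondrial reads. Genotype, day and batch were taken from the labels. Counts were summed per group and batch, divided by the summed total, and compared as log2 ratios with a pseudocount of 1 CPM. With 1 sample per group, no p-value was computed, and a difference was called by the rule in the text. Intervals are 95% Poisson for CPM and 95% Clopper-Pearson for shares of cells, with a matching interval for differences of shares, and shares were taken after thinning each cell to 50000 reads. The ratio step was checked on simulated data. The members and gene lists were chosen with earlier results of these data known. Genes of the other lists were named by rule: up to 4 called genes per list and comparison, by size of the ratio. Lengths, positions and coding sequences came from GENCODE vM21 and promoters from RefSeq, in which all 9 members were matched.

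Alternatives covered the cell filter, the scaling (TMM factors from edgeR 4.0.16 and median-ratio factors from DESeq2 1.42.0), the pseudocount, the detection and fold limits, single batches, the mean of single cells, thinning and the total without mitochondrial genes and Gm42418. Leaving out the cell with most reads of a member, and lengths from the longest coding transcript, were added after seeing the data. Python 3.11.15 with numpy 2.4.6, pandas 2.3.3 and scipy 1.17.1, and R 4.3.3, were used.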

Additional observations from a re-analysis of the deposited data

Results flagged for a closer look

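Eed went in opposite directions in the knockouts at day 9. Its log2 ratio to WT was -0.39 in 3AKO, with -0.08 in batch 1 and -0.76 in batch 2, and 0.77 in 3BKO, with 0.72 and 0.40. The 0.77 lay above both batch ratios of 3BKO, since batches of unequal depth were summed. Both comparisons used the same WT cells, neither was called, the batch 1 value of 3AKO was close to 0, and the difference between the knockouts was not tested against WT. Eed was also the member with the widest gap between batches.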

How the results depend on the processing

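The number of members called depended most on the need for both batches and on the fold limit. Beside each count stands the share of all tested genes called in either direction under that setting. In 3AKO against WT, where 0 were called, batch 1 alone gave 1 (Ezh1 higher, 26.5% of all genes) and batch 2 alone 2 (Eed and Jarid2 lower, 20.4% of all genes higher and 26.6% lower). In 3BKO against WT, where 2 were called, batch 1 alone gave 5 (Mtf2, Ezh1, Eed and Jarid2 higher, Ezh2 lower, 39.2%), a limit of 2-fold gave 0 (7.84%), detection in 10% of cells gave 3 (adding Phf19, 21.2%) and a lower fold limit 3 (adding Eed, 35.8%). In 3BKO against 3AKO, where 3 were called, batch 2 alone gave 5 (55.9%), a limit of 2-fold 0 (9.46%), batch 1 alone 4 (40.2%) and averaging single-cell CPM 2 (22.6%). In WT at day 9 against day 3, where 0 were called, the mean of single-cell CPM (21.1%), the stricter cell filter (22.5%), thinned cells (21.7%) and batch 1 alone (44.3%) each gave 1 (Rbbp7 higher), TMM factors and median-ratio factors each gave 1 (Ezh2 lower, 20.2% each), batch 2 alone gave 2 (Ezh2 and Phf19 lower, 47.7%) and a lower fold limit gave 2 (39.3%). The cause was not tested beyond what these settings change by construction.

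Mtf2 in 3BKO against WT ranged from 0.94 to 1.77 over 12 settings and Ezh1 from 0.70 to 1.04, and neither changed sign. Ezh2 in 3BKO against WT ranged from -0.79 with thinned cells to 0.23 in batch 2. Across members, comparisons and alternatives, 267 ratios moved by less than their counting error and 165 by more. No called value changed sign under any alternative tried. No paired analysis was possible because each group is 1 sample and the labels give no replicate of a culture, clone or animal. Clones, cultures and plates cannot be told apart from genotype at day 9, since each genotype had its own plate, and single cells of Phf19 and Suz12 are limited by depth.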
